A study of Mus musculus and Homo sapiens with 81 samples.

Results

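Type II and type I interferon were compared directly in B16 cells, a mouse melanoma line, that expressed Cas9 and carried the non-targeting guide Bro3. The comparison sets 3 libraries of cells given 100 ng/mL IFNg for 48 h against 3 libraries of cells given 1000 U/mL IFNb for 48 h, taken by their labels, which is 6 of the 81 libraries in the series. The series asks how loss of Ptpn2, a phosphatase gene, alters responses to interferons and tumor necrosis factor in B16 and 4 human lines, and control cells such as these are its reference. Also used were 3 control libraries given vehicle (PBS with albumin), 3 given both interferons at the same doses, and 6 libraries of B16 cells with the guide Ptpn2sg3 given IFNb or IFNg. The 2 doses are in different units, so the kind and the dose of interferon cannot be told apart. Each genotype rests on 1 guide. Nothing in the labels says that replicates came from separate cultures, so p-values measure no more than the spread between these libraries, which may be technical.

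IFNb and IFNg bind different receptors. The IFNb receptor works through the kinases JAK1 and TYK2 and mainly assembles a complex of STAT factors with IRF9, which binds the interferon-stimulated response element (ISRE). The IFNg receptor works through JAK1 and JAK2 and mainly yields STAT dimers, which bind the gamma-activated site (GAS) and induce IRF1, a factor that itself binds ISRE-like DNA. Many genes answer to both, and both interferons slow the growth of melanoma cells and raise antigen presentation.

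Levels are given as CPM, a library's counts for a gene relative to its scaled total, and differences as log2 fold changes ± standard error, where a positive value is higher with IFNg. A gene was called with an adjusted p under 0.05 by edgeR's quasi-likelihood test with Benjamini-Hochberg adjustment over 11726 tested genes. Bulk RNA cannot tell fewer cells of a kind from less RNA per cell. The 6 libraries held 4913976 to 6432517 counts, and each had a count for 13270 to 13468 genes. Ptpn2 itself stood at 52.2, 44.7 and 54.6 CPM with IFNb and at 51.9, 57.5 and 54.9 CPM with IFNg (0.11 ± 0.09, adjusted p = 0.32), against 9.41 to 13.5 CPM in the 6 libraries with Ptpn2sg3. Melanocyte markers summed to 21620 to 21680 CPM with IFNb and 23740 to 24060 CPM with IFNg. Leukocyte markers summed to 3 to 4.23 CPM and 5.36 to 6.80 CPM, with Ptprc, Itgam, Csf1r and Itgax at 0, and Cd68, which encodes a lysosomal membrane protein, was the 1 marker of that list that was tested (0.98 ± 0.27, adjusted p = 0.0028). Epithelial markers reached at most 1.35 CPM and fibroblast markers at most 1.79 CPM in any of the 6 libraries. The part of the leukocyte sum in the differences below was not tested.

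IFNg and IFNb differed across much of the B16 transcriptome, most widely in immune genes that stood at very high levels with IFNg and at low or moderate ones with IFNb. Of the tested genes 4182 were called (35.7%), with 2043 higher with IFNg (17.4%) and 2139 higher with IFNb (18.2%). The last 2 shares are to be set beside each list count of control genes higher with IFNg or IFNb below. Changes of at least 2-fold were less even, with 441 genes higher with IFNg (3.76%) and 200 higher with IFNb (1.71%). The 3 libraries of each group did not overlap for 5894 genes (50.3%), with IFNg higher in 24.5% of tested genes and IFNb higher in 25.8%. The median log2 fold change over all tested genes was -0.01.

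**Figure D1:**
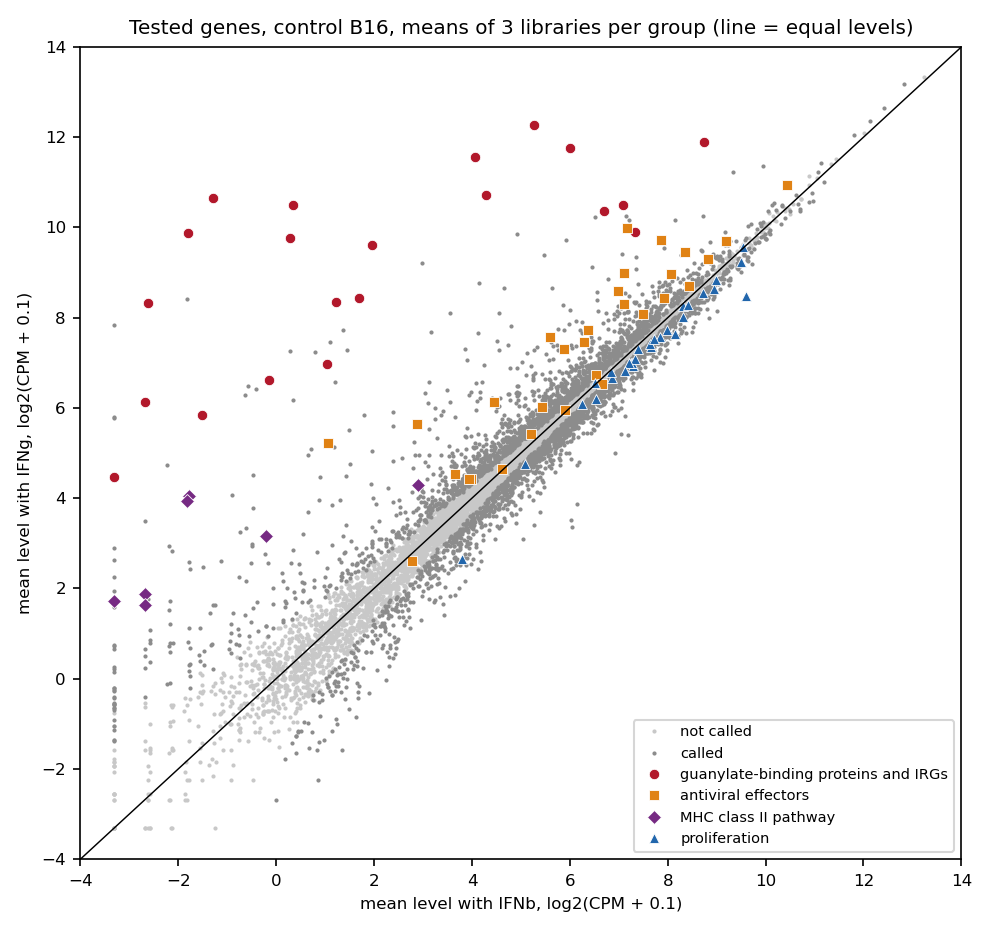
Each point is a tested gene, with its mean level over 3 libraries as log2(CPM + 0.1) for IFNb on the x axis and IFNg on the y axis; dark grey points were called and coloured symbols mark 4 gene lists. GTPase genes lie far above the line of equal levels, antiviral effectors on it or above it by up to 4.22 (Oas3), and most proliferation genes just below it.

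Receptors differed little. Of 7 receptor and Janus kinase genes 4 were higher with IFNg and none was higher with IFNb (median 0.30). Jak2, the kinase of the IFNg receptor, measured 53.4, 45.7 and 52.4 CPM with IFNb and 97.3, 89.6 and 91.2 CPM with IFNg. Its groups did not overlap, and it was higher with IFNg by 0.87 ± 0.10 (adjusted p = 1.5e-10). Ifnar2, a chain of the type I receptor, was also higher with IFNg (0.71 ± 0.07), whereas the partner chain Ifnar1 (0.02 ± 0.06) and both IFNg receptor genes, Ifngr1 (0.15 ± 0.12) and Ifngr2 (-0.11 ± 0.06), were not called.

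Of the 5 tested STAT genes reported here 2, Stat2 and Stat3, were higher with IFNg and 3 were not called (median 0.15). Stat2, part of the ISRE-binding complex, measured 59, 60.8 and 71.3 CPM with IFNb and 284, 279 and 297 CPM with IFNg (2.17 ± 0.06, adjusted p = 3e-34). Both groups were far above the vehicle libraries at 7.73 to 10.5 CPM, and they did not overlap. Stat3, a factor of cytokine and growth signalling, measured 89.2, 83.8 and 89.7 CPM with IFNb and 573, 561 and 545 CPM with IFNg (2.68 ± 0.06, adjusted p = 5.7e-40), so that with IFNb it lay close to the vehicle range of 65.7 to 76.2 CPM.

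Among interferon regulatory factors 6 of 7 tested genes were higher with IFNg and none was higher with IFNb (median 1.56), but the sizes ranged widely. Irf1 (chr11:53770014-53778374 on GRCm38) measured 27.6, 30.2 and 32.5 CPM with IFNb and 941, 934 and 912.5 CPM with IFNg (4.95 ± 0.06, adjusted p = 5.2e-53). Irf8, a factor of myeloid and lymphoid cells that partners with IRF1, had no count in any vehicle or IFNb library and 55.7, 57.8 and 52.0 CPM with IFNg. With the IFNb group set to a floor of 3 counts in all, Irf8 was at least 299-fold higher with IFNg. Irf2, a relative of IRF1, was higher by 1.56 ± 0.08.

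Irf7, Irf9 and Irf3 showed the smallest gaps of the list. Irf7, the amplifier of type I interferon production, measured 142, 142 and 149 CPM with IFNb and 203, 225 and 212 CPM with IFNg (0.57 ± 0.06, adjusted p = 3e-12). The groups did not overlap, and vehicle libraries stood at 0.197 to 0.39 CPM. Irf9 measured 97.2, 99.1 and 106 CPM with IFNb and 115, 117 and 110.5 CPM with IFNg. That gap of 0.18 ± 0.07 was called (adjusted p = 0.026) but ended as a call without control IFNb replicate 1, control IFNb replicate 2 or control IFNg replicate 2. Irf3, the sensor-activated factor, was not called (-0.19 ± 0.10).

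Feedback inhibitors were called at about the share of all tested genes, and the called ones split. Of 11 tested genes 2 were higher with IFNg and 2 higher with IFNb (median -0.07), beside 17.4% and 18.2% of all tested genes. Socs1, which encodes the main inhibitor of Janus kinases downstream of IFNg, measured 2.2, 4.37 and 3.57 CPM with IFNb and 52.1, 62.5 and 56.1 CPM with IFNg (4.09 ± 0.17, adjusted p = 2e-27). Socs3, an inhibitor best known in STAT3 signalling, was higher by 2.76 ± 0.13 and was not called with IFNb against vehicle (0.06, adjusted p = 0.85). Usp18, whose product removes ISG15 from proteins and blocks the type I receptor, went the other way. It measured 164, 162 and 176 CPM with IFNb and 108, 108 and 106 CPM with IFNg (-0.64 ± 0.06, adjusted p = 4.5e-12). Every IFNb library stood above every IFNg library, and both groups stood far above the vehicle libraries at 0.39 to 0.822 CPM. Socs2, a regulator of growth hormone signalling, was the other gene higher with IFNb, at 2.2 CPM with IFNb and 0.725 CPM with IFNg as group means (-1.51 ± 0.48), a call that ended without control IFNg replicate 3 (adjusted p = 0.072).

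**Figure D2:**
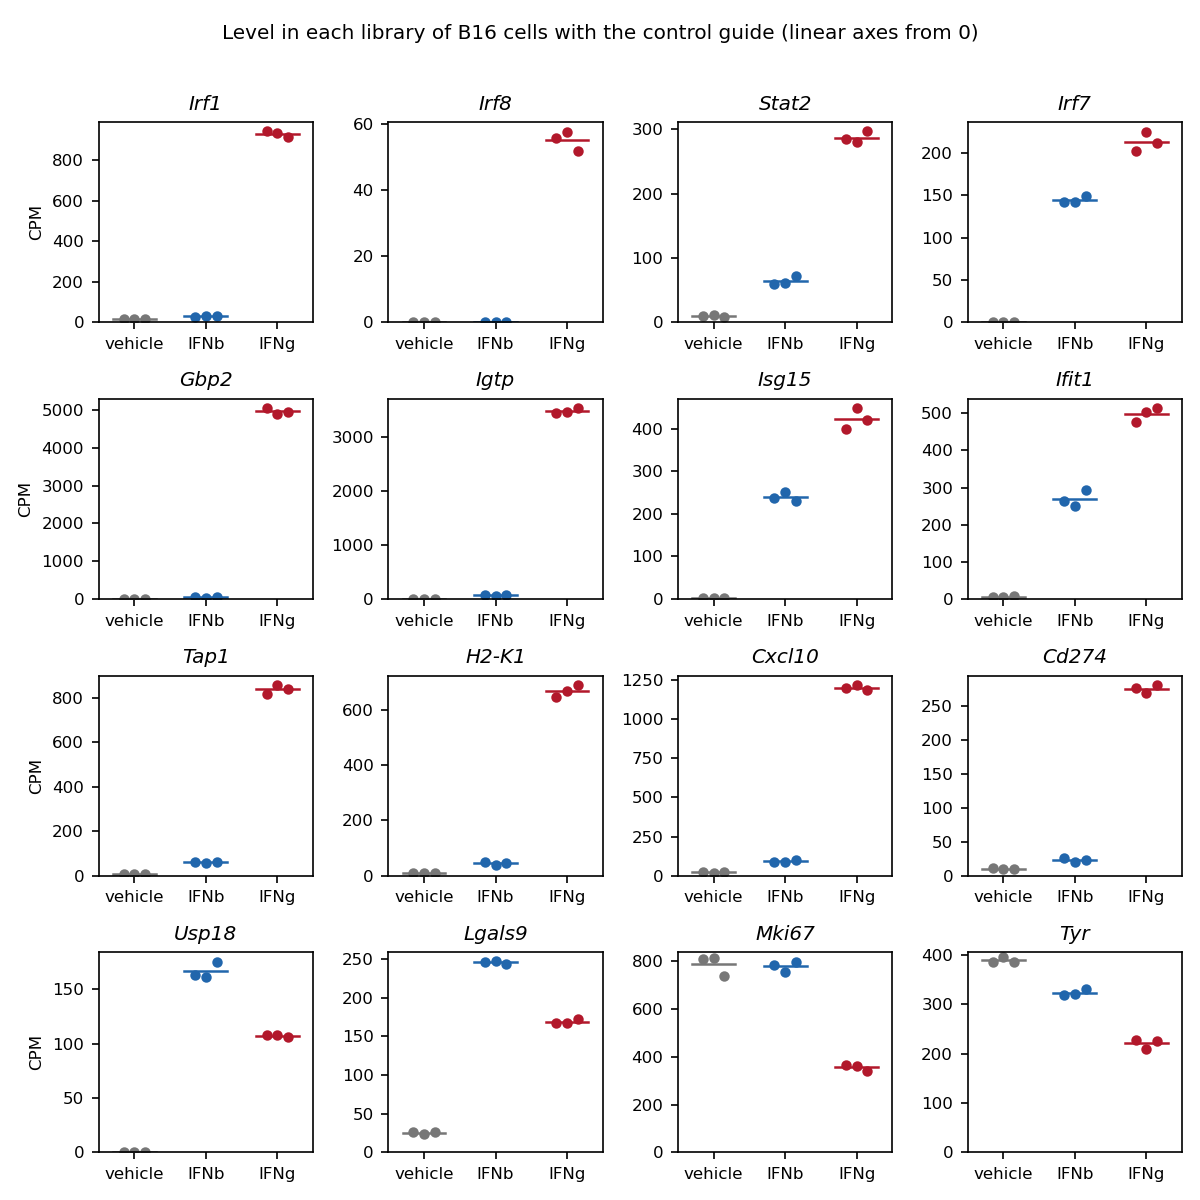
CPM on linear axes from 0 (y) in each of 3 vehicle, 3 IFNb and 3 IFNg libraries of control B16 cells (x) for 16 genes, with bars at group means. Irf8 is at 0 without IFNg, Irf1 and Gbp2 are close to the axis with IFNb, Irf7, Isg15 and Ifit1 answer to both interferons, and Usp18 and Lgals9 are highest with IFNb.

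GTPases that attack vacuoles of intracellular microbes formed the 2 lists with the largest medians. All 10 tested guanylate-binding protein genes were at least 2-fold higher with IFNg (median 6.95, or 6.90 with genes of 3 counts or fewer in a group at their bound). So were all 11 immunity-related GTPase genes (median 7.51). With IFNb, 3 of the 10 and 1 of the 11 had 3 counts or fewer. These could pass the filter on low counts only through libraries in which they were higher, so counts over both lists are a description. Gbp4 measured 0.338, 0.397 and 0.188 CPM with IFNb and 1638, 1599 and 1611 CPM with IFNg (12.25 ± 0.12, adjusted p = 8.7e-51). Gbp2 (chr3:142620602-142638008) rose from a mean of 6.41 CPM in vehicle to 38.7 ± 3.92 CPM with IFNb and 4966 ± 75.2 CPM with IFNg (SD, n = 3 libraries each; 7 ± 0.07 between the interferons). Gbp3 and Gbp7 showed the smallest gaps (2.57 ± 0.06 and 3.66 ± 0.07), and stood at 162 and 104 CPM with IFNb.

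The immunity-related GTPases behaved alike. Igtp, also known as Irgm3, measured 67.3, 59.4 and 66.6 CPM with IFNb and 3443, 3461 and 3525 CPM with IFNg (5.75 ± 0.07). Irgm1, a regulator of the family, was the member closest between the interferons, at 427 ± 21.2 CPM with IFNb and 3779 ± 85.0 CPM with IFNg (3.15 ± 0.05). Iigp1, an effector that coats parasite vacuoles, reached 3035 ± 83.1 CPM with IFNg from 16.5 ± 2.64 CPM with IFNb (7.51 ± 0.11). Tgtp1 measured 0.845, 1.59 and 0.938 CPM against 857, 886 and 874 CPM (9.59 ± 0.11). Gm12185 had 3 counts over the IFNb group and 15922 over the IFNg group, a ratio of 5065 (95% exact binomial interval 1730 to 24600, counting error only). The annotation places Tgtp1 (chr11:48985327-48994172) partly within Gm12185 (chr11:48904656-48992226), and Gbp8 partly over Gbp4. These families also hold near-identical copies, so how reads were divided among their members is uncertain.

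The 12 genes with the largest fitted log2 fold changes toward IFNg included 7 members of these GTPase lists. For genes with few or no counts with IFNb, a fitted value is not a measured fold, so the order is a description. Those outside the lists were Gm4841, Irf8, Sp140, a nuclear-body protein gene, and Apol10b and Apol6, of the apolipoprotein L family. Gm4841, Irf8, Apol10b, Gbp8 and Sp140 had no count with IFNb and were at least 1243-fold, 299-fold, 298-fold, 119.5-fold and 39.7-fold higher with IFNg by the same floor. By these bounds Gbp8 and Sp140 need not exceed genes outside the 12, such as Tgtp2 (log2 fold change 7.67).

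Upstream sequences of some response genes are printed below, picked by hand from genes that the results turn on. Each comes from the first RefSeq window of its gene that held a match, so every stretch was bound to hold one. Other named genes with a match, such as B2m, are not printed, so these stretches do not show how common matches are. A search used the ISRE core GAAANNGAAA on both strands and the GAS core TTCNNNGAA, which reads the same on both strands. Over RefSeq's promoter windows (GRCm38.p6, 250 bases before to 50 after the start), 1079 of 27025 genes (3.99%) held the first, 2582 (9.55%) the second and 166 (0.614%) both. Each stretch is printed 5′ to 3′ on the gene's own strand and ends at the last base before a RefSeq transcript start, with motif matches in capitals. Gene coordinates elsewhere in the text are GENCODE's, and its outermost starts of Gbp2, Tgtp1 and Gm12185 lie upstream of the RefSeq starts used here, so that these 3 stretches fall inside or across the start of the GENCODE gene.
Irf1: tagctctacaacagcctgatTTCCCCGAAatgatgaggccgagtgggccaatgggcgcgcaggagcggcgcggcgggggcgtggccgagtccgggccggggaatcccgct
Igtp: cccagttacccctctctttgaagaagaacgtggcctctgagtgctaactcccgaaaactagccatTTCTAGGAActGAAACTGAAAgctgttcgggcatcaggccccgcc
Tgtp1: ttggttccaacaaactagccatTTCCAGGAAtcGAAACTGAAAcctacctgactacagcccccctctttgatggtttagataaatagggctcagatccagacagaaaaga
Gm12185: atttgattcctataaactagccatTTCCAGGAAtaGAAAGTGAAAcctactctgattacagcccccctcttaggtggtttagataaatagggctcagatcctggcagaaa
Gbp2: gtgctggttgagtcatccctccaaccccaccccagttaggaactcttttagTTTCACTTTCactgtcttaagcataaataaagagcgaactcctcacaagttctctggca
Isg15: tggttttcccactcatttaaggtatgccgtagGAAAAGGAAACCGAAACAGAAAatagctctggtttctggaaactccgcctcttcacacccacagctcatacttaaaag
Ifit1: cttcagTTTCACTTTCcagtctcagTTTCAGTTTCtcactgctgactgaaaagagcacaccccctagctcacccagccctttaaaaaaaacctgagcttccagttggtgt

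The stretch of Irf1 (chr11:53769904-53770013, plus strand) held 1 GAS match and no ISRE match. Igtp (chr11:58199446-58199555, plus strand), Tgtp1 (chr11:48992247-48992356, minus strand) and Gm12185 (chr11:48927183-48927292, minus strand) each held a GAS match followed, 2 bases later, by an ISRE match. Gbp2 (chr3:142620553-142620662, plus strand) held 1 ISRE match and Ifit1 (chr19:34640779-34640888, plus strand) 2, all on the strand opposite to the gene. Isg15 (chr4:156200819-156200928, minus strand) held 3 overlapping ISRE matches on its own strand. A match is a description of letters and not a measured binding site. Windows were matched for 71.9% of tested genes, under the 80% set for such checks, so shares over gene lists and over all called genes are void and not given.

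Antiviral effectors, the textbook targets of type I interferon, stood at similar or moderately higher levels with IFNg. Of 30 tested genes 24 were higher with IFNg and none was higher with IFNb (median 0.73), and 13 of the 24 differed by at least 2-fold. Against the vehicle libraries, which both responses share, 29 of the 30 were higher with IFNb (30.5% of tested genes were called, 17% as higher) and 29 with IFNg (37.9% of tested genes were called, 20% as higher), and in both 1 was lower. Ifit1, which binds viral RNA, measured 264, 250 and 295 CPM with IFNb and 476, 503 and 514 CPM with IFNg (0.88 ± 0.07, adjusted p = 8.8e-15). Isg15, a ubiquitin-like modifier, measured 238, 251 and 231 CPM against 401, 449 and 422 CPM (0.82 ± 0.11, adjusted p = 1.7e-07). Both genes showed groups apart from each other and far above vehicle libraries, which reached at most 7.40 CPM for Ifit1 and 2.76 CPM for Isg15.

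Some effectors were at close to the same level with either interferon. Oas2, a synthetase that activates RNase L, had no count in vehicle libraries and measured 90.2, 97 and 92.2 CPM with IFNb and 104, 101 and 114 CPM with IFNg (0.19 ± 0.09, adjusted p = 0.082). Mx2 (0.21 ± 0.11), Trim25 (-0.13 ± 0.08) and the RNA sensor gene Ddx58 (0.12 ± 0.06) were likewise not called, with both groups many-fold above vehicle. With only the compared groups in the fit, Oas2 (0.20, adjusted p = 0.0025), Ddx58 (0.13, adjusted p = 0.0011) and Mx2 (0.22, adjusted p = 0.026) were called as slightly higher with IFNg. Other members were far apart. Oas3, a sister of Oas2, measured 1.86, 1.99 and 2.06 CPM with IFNb and 34.7, 42.3 and 34.0 CPM with IFNg (4.22 ± 0.18). Ifit2 measured 145, 141 and 148 CPM with IFNb, close to the vehicle range of 113 to 124 CPM, and 1020.0, 1017 and 1003 CPM with IFNg (2.81 ± 0.10).

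Sensors and modifiers followed. Of 14 tested nucleic acid sensor genes 11 were higher with IFNg and none higher with IFNb (median 2.21, or 1.80 with low genes at their bound). Since 2 of the 14 had 3 counts or fewer in a group, counts over the 14 are a description. Zbp1, a Z-nucleic acid sensor of cell death pathways, measured 7.44, 7.95 and 8.07 CPM with IFNb and 582, 602 and 591 CPM with IFNg (6.24 ± 0.08). All 7 interferon-induced PARP genes were at least 2-fold higher with IFNg (median 1.57), led by Parp14 (2.95 ± 0.07). In the ISG15 system 4 of 6 genes were higher with IFNg, among them Uba7, the activating enzyme (3.02 ± 0.08), and the deconjugase Usp18 was the 1 gene higher with IFNb. Of 9 tested TRIM genes 7 were higher with IFNg (median 0.66), and Trim21, a cytosolic antibody receptor, was higher by 1.72 ± 0.08.

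Tested genes of MHC class I antigen presentation were higher with IFNg at the level of RNA. Of 16 listed class I chain and regulator genes 10 were tested, and all 10 were at least 2-fold higher (median 2.58). H2-Q10 lost its call without control IFNg replicate 3 (adjusted p = 0.1). H2-K1, a classical class I heavy chain, measured 48.0, 39.9 and 45.6 CPM with IFNb and 644, 667 and 689 CPM with IFNg (3.90 ± 0.08, adjusted p = 2.1e-40). B2m, the shared light chain, measured 1028, 955 and 997.5 CPM against 2539, 2698 and 2685 CPM (1.41 ± 0.05). In both genes the IFNb group lay between vehicle and IFNg, without overlap. Nlrc5, the transactivator of class I genes, measured 9.97, 11.5 and 13.1 CPM with IFNb and 285, 259 and 278 CPM with IFNg (4.57 ± 0.10). H2 genes share much sequence, and the division of reads among them is uncertain.

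Genes of peptide supply moved with them. Of 8 loading genes 7 were higher with IFNg and none higher with IFNb (median 3.07), and all 5 immunoproteasome genes were (median 4). Tap1, a subunit of the peptide transporter, measured 62.4, 59.0 and 60.2 CPM with IFNb and 819, 859 and 839 CPM with IFNg (3.79 ± 0.06, adjusted p = 2.7e-48). Psmb8, a catalytic immunoproteasome subunit, measured 0.845, 1.59 and 0.938 CPM against 147, 161 and 150.5 CPM (7.08 ± 0.17). Psmb9, another such subunit whose annotated gene overlaps that of Tap1, was higher by 6.42 ± 0.13. Constitutive proteasome subunits differed too, though less, with 12 of 14 higher with IFNg and none higher with IFNb (median 0.43). The 12 became 9 to 12 with 1 library left out. With each library's trend with transcript length removed, 10 were higher with IFNg (median 0.33). Against the shared vehicle libraries 8 of the 14 were higher with IFNg and none lower, whereas none was higher with IFNb and 3 were lower. Psma5, a structural subunit, was the 1 member at least 2-fold apart, at 10.7, 9.93 and 6.94 CPM with IFNb and 23.9, 26.1 and 19.6 CPM with IFNg (1.34 ± 0.14).

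MHC class II genes stood at low levels with IFNg and mostly near 0 with IFNb. Of 11 listed genes 7 passed the filter on low counts, and 5 of these had 3 counts or fewer with IFNb and could pass only through libraries in which they were higher, so counts over the 7 are a description. These 7 were at least 2-fold higher with IFNg, and with no filter 8 of 10 genes were called as higher. Against the shared vehicle libraries none of the 7 was called with IFNb, and all 7 were higher with IFNg. Ciita, the class II transactivator, had 3 counts over the IFNb group and 279 over the IFNg group, where it measured 15.4, 17.2 and 16.5 CPM, a ratio of 88.8 (95% exact binomial interval 30.1 to 433). Cd74, the invariant chain, measured 18.6, 13.9 and 13 CPM with IFNg and had 3 counts over the IFNb group, a ratio of 83 (28.1 to 405). H2-Aa, a class II alpha chain, had no count with IFNb and 54 over the IFNg group, at least 17.2-fold higher.

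Chemokines that attract T cells were among the genes higher with IFNg. Of 15 listed chemokine genes 8 passed the filter on low counts. Of these, 3 had 3 counts or fewer in a group and could pass only through libraries in which they were higher, so counts over the 8 are a description. Of the 8, 6 were higher with IFNg and none higher with IFNb (median 2.54, or 2.33 with low genes at their bound). The 6 became 4 or 5 with 1 library left out. Cxcl1 lost its call in 6 of 11 alternatives and Cx3cl1 in 3. Cxcl10, a ligand of CXCR3 on T cells, measured 89.6, 88.6 and 97.2 CPM with IFNb and 1196, 1219 and 1187 CPM with IFNg (3.71 ± 0.06, adjusted p = 9e-47). Cxcl9, another CXCR3 ligand, had 2 counts over the IFNb group and 7.46, 6.80 and 6.81 CPM with IFNg, a ratio of 57.3 (15.5 to 478). Ccl5, which attracts T cells, was higher by 2.76 ± 0.19.

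Of 10 T cell ligand and adhesion genes 4 were higher with IFNg and 2 higher with IFNb (median 0.26), beside 17.4% and 18.2% of all tested genes. The count higher with IFNb was thus near the share of all tested genes. Cd274, which encodes PD-L1, measured 26.5, 19.7 and 23.5 CPM with IFNb and 277, 269 and 282 CPM with IFNg (3.56 ± 0.08, adjusted p = 1.9e-39), against 9.36 to 11.5 CPM in vehicle. Cd47, a signal that restrains phagocytes, was higher with IFNg by 2.03 ± 0.07. Lgals9, which encodes galectin-9, was higher with IFNb, at 247, 248 and 244 CPM against 168, 167 and 173 CPM with IFNg (-0.54 ± 0.05, adjusted p = 2.5e-12). Tnfsf9, the ligand of the costimulatory receptor 4-1BB, was higher with IFNb as well, at 9.50 ± 0.412 CPM against 5.76 ± 0.240 CPM (SD, n = 3 libraries each; -0.73 ± 0.21, adjusted p = 0.0049).

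Cell death genes went both ways, with most higher with IFNg. Of 22 tested genes 14 were higher with IFNg and 5 higher with IFNb (median 0.49, or 0.52 with low genes at their bound), the 5 falling to 2 or 3 when single libraries were left out. The 8 genes at least 2-fold apart were all higher with IFNg. Gsdmd, the pore former of pyroptosis, measured 4.06, 4.57 and 6.76 CPM with IFNb and 60.5, 57.5 and 62.1 CPM with IFNg (3.55 ± 0.15). Casp4, the caspase that cleaves it on sensing bacterial lipid, was higher by 3.16 ± 0.21, and Mlkl, the pore former of necroptosis, by 1.66 ± 0.06. Bcl2, an inhibitor of apoptosis, was higher with IFNb, at 66.9 ± 1.76 CPM against 52.2 ± 5.86 CPM (-0.36 ± 0.09, adjusted p = 0.00093). Of 8 complement genes 6 were higher with IFNg and none higher with IFNb (median 1.17, or 1.44 with low genes at their bound). C2, a component of the classical pathway, measured 111, 110 and 109 CPM with IFNb and 455, 465 and 469 CPM with IFNg (2.07 ± 0.06). Of 5 tested genes of IFNg-linked metabolism 1 was called, beside 35.7% of all tested genes. That was Wars, the tryptophanyl-tRNA synthetase gene (1.04 ± 0.05). It measured 155, 161 and 158 CPM with IFNb and 331, 329 and 313 CPM with IFNg. Nos2 and Irg1 had at most 1 count in the 6 libraries.

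**Figure D3:**
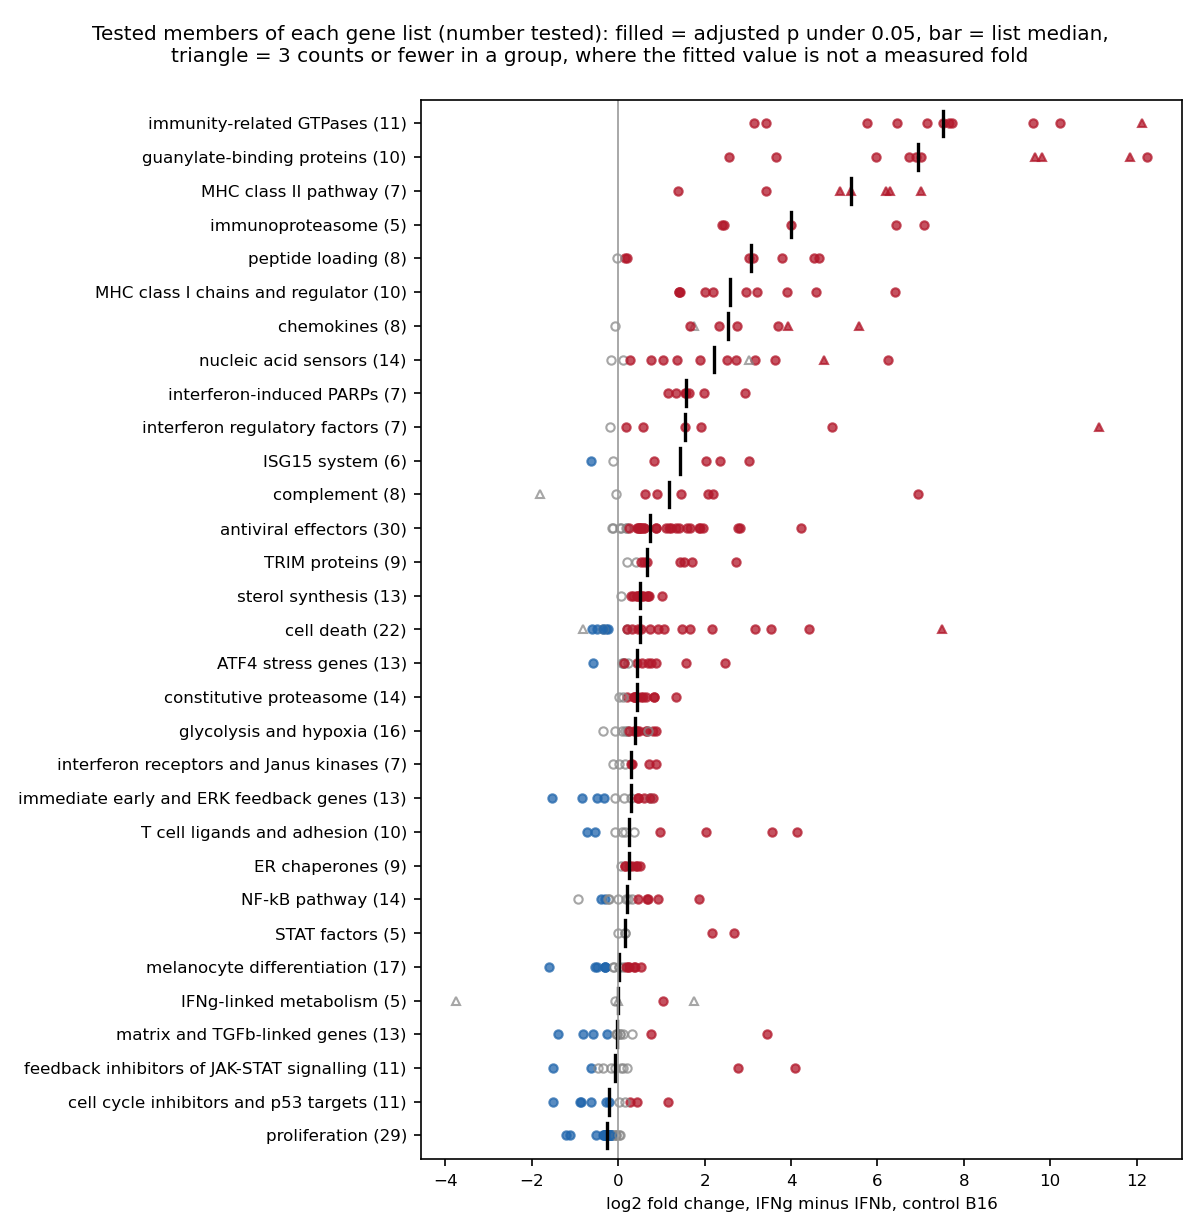
Log2 fold change of IFNg minus IFNb (x) for each tested member of 31 gene lists (y, with the number tested), where filled points were called, bars are list medians and triangles have 3 counts or fewer in a group. Immunity-related GTPases and guanylate-binding proteins are farthest right with medians of 7.51 and 6.95, and proliferation genes farthest left with a median of -0.26.

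Genes of the cell cycle were lower with IFNg. Of 29 proliferation genes 23 were higher with IFNb and none higher with IFNg (median -0.26). The 23 fell to between 17 and 21 with 1 library left out, and to 20 with no filter on low counts. Mki67, the gene of the proliferation antigen Ki-67, measured 783, 756 and 797 CPM with IFNb and 366, 362 and 342 CPM with IFNg (-1.13 ± 0.06, adjusted p = 1.8e-21). The IFNb libraries overlapped the vehicle range of 740 to 814 CPM, and the IFNg libraries lay below both. Ccna2, the cyclin of S phase and mitosis, showed the same order at 283 ± 4.73 CPM against 199 ± 9.45 CPM (SD, n = 3 libraries each; -0.51 ± 0.06). Ccne2, a cyclin of S phase entry, was at 13.9 ± 0.194 CPM with IFNb and 6.14 ± 1.83 CPM with IFNg (-1.21 ± 0.22). Other members differed by small amounts, and Top2a, a topoisomerase gene, was not called (0.04 ± 0.05). Against the shared vehicle libraries 5 of the 29 were higher and 6 lower with IFNb (13.5% of tested genes were lower), and 1 was higher and 20 lower with IFNg (17.9% of tested genes were lower).

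Genes that stop the cycle went both ways. Of 11 tested inhibitors and p53 targets 3 were higher with IFNg and 6 higher with IFNb (median -0.21). Cdkn1a, which encodes the inhibitor p21, measured 438, 454 and 454 CPM with IFNb and 295, 301 and 281 CPM with IFNg (-0.62 ± 0.05, adjusted p = 2.6e-14). Relative to the vehicle range of 307 to 354 CPM it was higher with IFNb (0.46) and lower with IFNg (-0.16). The p53 targets Ccng1 (-0.86 ± 0.06) and Trp53inp1 (-0.88 ± 0.07) and the antiproliferative gene Btg2 (-1.51 ± 0.25) were also higher with IFNb. Cdkn1b, which encodes the inhibitor p27, was higher with IFNg (0.43 ± 0.07).

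Pigment cell genes did not move as 1 group. Of 17 melanocyte genes 6 were higher with IFNg and 6 higher with IFNb (median 0.01), while against the shared vehicle libraries 15 were lower with IFNb, and 12 were lower and 2 higher with IFNg. Tyr, the enzyme that starts melanin synthesis, measured 319, 320.3 and 331 CPM with IFNb and 228, 209 and 227 CPM with IFNg (-0.55 ± 0.08, adjusted p = 2.1e-07). Mitf, the master factor of the lineage, was higher with IFNb by a smaller margin (-0.30 ± 0.05), as was the receptor gene Kit at low levels (-1.59 ± 0.31). Pmel, the fibril protein of melanosomes, and Mlana, a melanosomal antigen, were higher with IFNg (0.25 ± 0.04 and 0.39 ± 0.07). Pmel measured 3503, 3711 and 3548 CPM against 4228, 4238 and 4283 CPM, without overlap.

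Genes of sterol synthesis, which make cholesterol and isoprenoids, were mostly lower with IFNb than with IFNg or vehicle. Of 13 sterol synthesis genes 12 were higher with IFNg and none higher with IFNb (median 0.50). Against the shared vehicle libraries 12 of the 13 were lower with IFNb (median -0.46), whereas 2 were higher and 2 lower with IFNg (median 0.03). Fdps, a farnesyl diphosphate synthase gene, measured 24, 29.6 and 26.1 CPM with IFNb, 50.9, 56.2 and 54.2 CPM with IFNg and 50.3, 55.7 and 60.3 CPM with vehicle (1.02 ± 0.11 between the interferons). The IFNg and vehicle libraries overlapped and the IFNb libraries lay below both. Insig1, a sterol sensor that restrains the pathway and is one of its targets, was lower than vehicle with both, at 197 ± 5.85 CPM with IFNb and 324 ± 10.3 CPM with IFNg (0.72 ± 0.06).

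Glycolysis and ER chaperone genes were also mostly lower than vehicle with IFNb. Of 16 glycolysis and hypoxia genes 9 were higher with IFNg and none higher with IFNb (median 0.39), with 13 lower than vehicle under IFNb, and 8 lower and 2 higher under IFNg. Hk2, a hexokinase gene, measured 183, 160.1 and 170.4 CPM with IFNb and 321, 307.5 and 308 CPM with IFNg (0.87 ± 0.07), on either side of the vehicle range of 217 to 232 CPM. Ldha, the lactate dehydrogenase gene, was not called (0.08 ± 0.06). Of 9 ER chaperone genes 7 were higher with IFNg and none higher with IFNb (median 0.25), with 8 and 6 lower than vehicle, and Xbp1, the splicing-activated factor of that response, was higher with IFNg by 0.42 ± 0.06.

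Of 13 ATF4 stress genes 8 were higher with IFNg and 1 higher with IFNb (median 0.43), against 1 higher and 7 lower than vehicle under IFNb and 6 higher and 4 lower under IFNg. Atf4, the factor of the integrated stress response, measured 294, 284 and 295 CPM with IFNb and 472, 465 and 472 CPM with IFNg (0.69 ± 0.07, adjusted p = 3.7e-11). Trib3, one of its targets, was at 30.4 ± 0.806 CPM with IFNb and 90.0 ± 2.42 CPM with IFNg (1.56 ± 0.13), with vehicle libraries between them at 46.2 to 73.5 CPM. Ddit3, which encodes CHOP, was not called (0.12 ± 0.15) and was above vehicle with both. Transcript length moved with this comparison: across 11615 genes with a length, Spearman's rho of the log2 fold change with length was -0.18, with a median of 2861 bases in genes higher with IFNg and 3957 in genes higher with IFNb. With each library's length trend removed, 12 sterol, 9 glycolysis, 7 chaperone and 7 ATF4 stress genes were still higher with IFNg than with IFNb. Length moved more with IFNb against vehicle (rho 0.255). There the median was 4069 bases in genes called higher and 2355 in genes called lower. Counts of these lists against vehicle with the trend removed are not given, so their dependence on length was not tested.

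**Figure D4:**
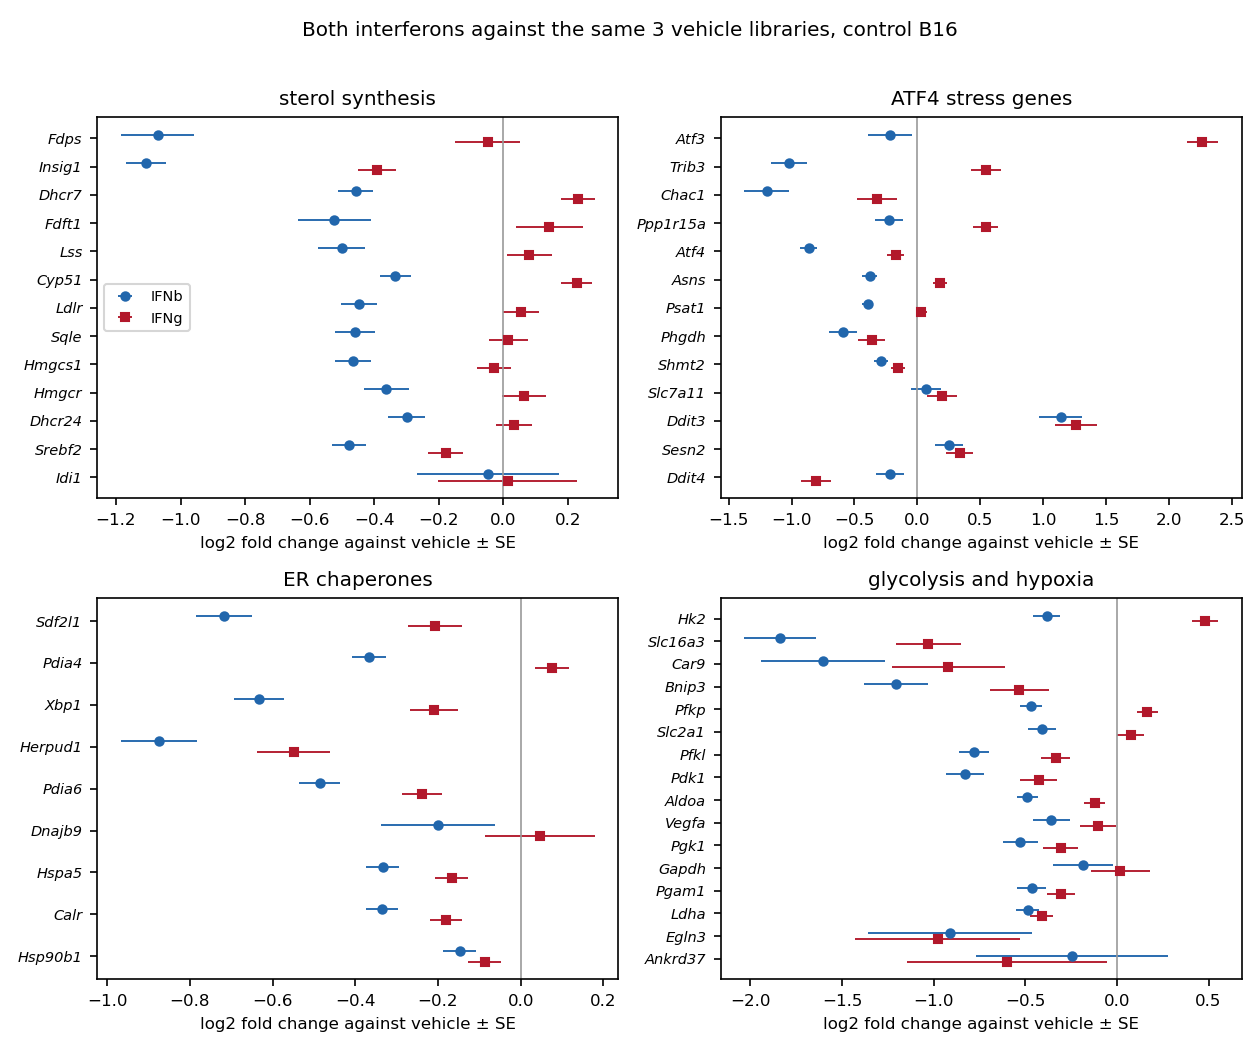
Log2 fold change against the same 3 vehicle libraries ± SE (x) for the tested genes of 4 lists (y), with IFNb as circles and IFNg as squares. In the sterol list the IFNb values center on a median of -0.46 and the IFNg values on 0.03.

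The genes with the largest excess under IFNb were Masp1, Sucnr1, Odz4, Cpz, Aldh1a3, Abca12, Gm20324, Sema3d, Csdc2, Npnt, Ttn and Mcc, from -2.67 to -1.97. Masp1, a protease gene of the lectin complement pathway that was not in the complement list, measured 70.3, 64.2 and 62.3 CPM with IFNb and 11.4, 10.2 and 9.07 CPM with IFNg (-2.67 ± 0.14, adjusted p = 6.4e-23). The vehicle libraries lay between, at 31.4 to 38.2 CPM, so it was higher than vehicle with IFNb (0.88) and lower with IFNg (-1.79). Odz4, a teneurin gene, measured 60.7, 71.5 and 61.9 CPM against 12.8, 12.6 and 8.87 CPM (-2.48 ± 0.12), and Abca12, a lipid transporter gene, 71.3, 67 and 74.1 CPM against 16.4, 11.5 and 15.9 CPM (-2.29 ± 0.12). Against vehicle the log2 fold change of Odz4 was 0.39 with IFNb and -2.09 with IFNg, and that of Abca12 was 0.27 and -2.01. Npnt, a basement membrane protein gene, was at 10.7 ± 1.6 CPM with IFNb and 2.57 ± 0.807 CPM with IFNg (SD, n = 3 libraries each; -2.01 ± 0.26). Several of the 12 have long transcripts, among them Odz4 at 13172 bases, Abca12 at 9137 and Ttn, the titin gene, at 106824. The value of Cpz, a carboxypeptidase gene at 0.324 to 3.94 CPM, moved from -2.44 to -3.36 without control IFNg replicate 3.

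Matrix and growth factor response genes went both ways. Of 13 matrix genes 2 were higher with IFNg and 4 higher with IFNb (median -0.03). Over all tested genes the shares were 17.4% and 18.2%, to be set beside each list here. Thbs1, which encodes thrombospondin-1, measured 18.3, 12.1 and 12.8 CPM with IFNb and 168, 147 and 158 CPM with IFNg (3.44 ± 0.17), and Fn1, the fibronectin gene, was higher with IFNg by 0.75 ± 0.10. Col1a2, a collagen chain gene, was at 22.2 ± 0.801 CPM with IFNb and 8.49 ± 0.775 CPM with IFNg (-1.39 ± 0.15). Of 13 immediate early and ERK feedback genes 5 were higher with IFNg and 4 higher with IFNb (median 0.29), the 4 falling to 2 without control IFNb replicate 1. Myc measured 77.1, 80.1 and 74.3 CPM with IFNb and 48.7, 38.5 and 42.5 CPM with IFNg (-0.83 ± 0.09, adjusted p = 1.6e-11), where vehicle libraries stood at 35.7 to 41.5 CPM. Junb, an AP-1 factor gene, was higher with IFNg (0.80 ± 0.13). Of 14 NF-kB pathway genes 5 were higher with IFNg and 2 higher with IFNb (median 0.19), and Relb, of the noncanonical arm, was not called (-0.24 ± 0.20) and was lower than vehicle with both.

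The same contrast in cells with the guide against Ptpn2 uses other libraries. There 6392 genes were called (54.5%), with 3114 higher with IFNg (26.6%) and 3278 higher with IFNb (28%). Of the 2043 control genes higher with IFNg 1695 (83%) were called in the same direction, which is 54.4% of the 3114, and 36 (1.76%) in the opposite one. Of the 2139 higher with IFNb 1716 (80.2%) were called in the same direction, which is 52.3% of the 3278, and 36 (1.68%) in the opposite one. Of those at least 2-fold apart, 432 of 441 higher with IFNg (98%, and 13.9% of the 3114) and 157 of 200 higher with IFNb (78.5%, and 4.79% of the 3278) were called in the same direction, and none in the opposite one.

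The size of the contrast differed between genotypes for 2339 genes (19.9%), shifted toward IFNg in Ptpn2sg3 cells for 9.53% of tested genes and toward IFNb for 10.4%. Irf1 (4.95 in both genotypes) and Gbp2 (7 in control and 7.11 in Ptpn2sg3 cells) were not called for a difference, with adjusted p = 1 and 0.47. Ifit1 was 0.88 in control and 2.02 in Ptpn2sg3 cells, where IFNg libraries stood at 1133 to 1223 CPM and IFNb libraries at 274 to 297 CPM (difference 1.14 ± 0.10, adjusted p = 6.9e-13). Mki67 was -1.13 in control and -2.01 in Ptpn2sg3 cells (difference -0.89 ± 0.09, adjusted p = 2.5e-11). Usp18 and Lgals9, picked after their values were seen, were higher with IFNb in control cells and higher with IFNg in Ptpn2sg3 cells. Usp18 measured 172, 160 and 188 CPM with IFNb there and 309, 288 and 296.5 CPM with IFNg (0.78 ± 0.06), and Lgals9 240.0 to 253 CPM against 288 to 316 CPM (0.31 ± 0.05). With IFNb neither gene stood apart from its control range of 162 to 176 CPM for Usp18 and 244 to 248 CPM for Lgals9. All 29 proliferation genes were higher with IFNb in Ptpn2sg3 cells (median -0.78). Some other lists did not repeat their control pattern there. Of 13 sterol synthesis genes 4 were higher with IFNg and 3 higher with IFNb (median 0.001), beside 26.6% and 28% of tested genes. Of 16 glycolysis and hypoxia genes 4 were higher with IFNg and 2 higher with IFNb (median 0.105). Of 17 melanocyte genes 1 was higher with IFNg and 15 higher with IFNb (median -1.05). Since a single guide stands for each genotype, effects of the genotype and of the individual cell population cannot be told apart.

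**Figure D5:**
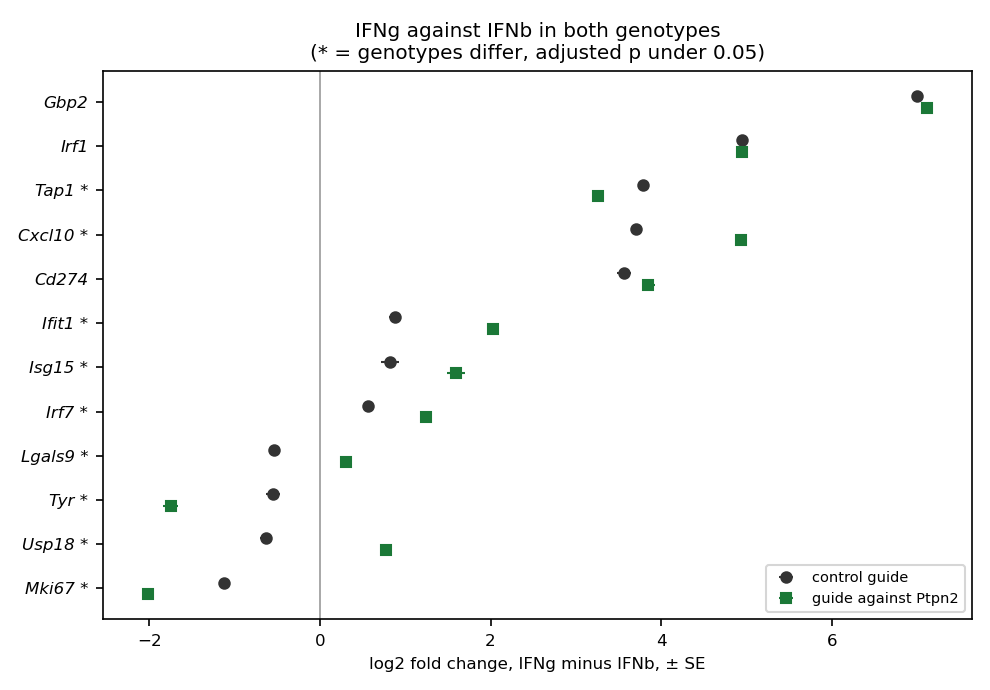
Log2 fold change of IFNg minus IFNb ± SE (x) for named genes (y) in control cells (circles) and cells with the guide against Ptpn2 (squares), with an asterisk where the difference between genotypes was called. Gbp2 and Irf1 nearly coincide, and Usp18 and Lgals9 lie on opposite sides of 0.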

How the data were processed

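The authors deposited raw counts for each gene. The submitters' processing notes name HTSeq 0.6.1p1, Bowtie2 2.2.4, Trimmomatic 0.33, bcl2fastq 2.17.1.14 and DESeq2, and the build mm10. Per the labels' protocols, libraries were directional poly(A) libraries read as 37 bp pairs. Neither the annotation nor the strand setting of counting is given in the sources used here, so overlapping and near-identical genes are uncertain. The deposited count table held 23336 genes in 42 B16 libraries of 14 groups. Computed here with edgeR 4.0.16 in R 4.3.3 were filterByExpr by group (11726 genes, at least 99.88% of counts), TMM scaling and robust quasi-likelihood F tests, with 1 mean per group and 1 shared estimate of spread (common coefficient of variation 0.0521), tested on simulated data. Contrasts were IFNg minus IFNb in each genotype, each interferon minus vehicle in control cells, and the difference between genotypes. Named genes were a panel of 21, the 12 most changed called genes per direction with a mean log2 CPM not under 1 and groups apart, and members of gene lists; the genotype difference was named for 11 genes, with Usp18 and Lgals9 added later. Of the listed genes, 1 is not reported here. The libraries, lists and tests were chosen with earlier results of these data known. A group at 0 counts was set to 3 counts in all for a lower bound of the fold. For 1 to 3 counts the ratio is given with its 95% exact binomial interval, and both cover counting error only. Genes with so few counts in a group could pass the filter only through libraries in which they were higher. Counts over any list that holds such genes are therefore a description. Alternatives were RLE size factors, no filter, DESeq2 1.42.0, a replicate block, only the compared groups, removal of length trends (GENCODE M21 lengths) and leaving out each library. Promoter sequences are RefSeq's (GRCm38.p6), matched by symbol.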

Additional observations from a re-analysis of the deposited data

Results flagged for a closer look

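For 9 of 13 genes examined, of which Usp18 and Lgals9 were added after their values were seen, the gap between IFNg and IFNb differed between control and Ptpn2sg3 cells by edgeR's test of that difference itself, adjusted over all tested genes, of which 19.9% were called. In Ptpn2sg3 cells the gap was shifted toward IFNg for Usp18 (1.41 ± 0.09, adjusted p = 1.7e-18), Cxcl10 (1.23 ± 0.08, adjusted p = 1.4e-17), Ifit1 (1.14 ± 0.10, adjusted p = 6.9e-13), Lgals9 (0.85 ± 0.07, adjusted p = 3.2e-13), Isg15 (0.78 ± 0.15, adjusted p = 0.00021) and Irf7 (0.68 ± 0.08, adjusted p = 1.3e-09). It was shifted toward IFNb for Tyr (-1.20 ± 0.12, adjusted p = 6.9e-11), Mki67 (-0.89 ± 0.09, adjusted p = 2.5e-11) and Tap1 (-0.53 ± 0.08, adjusted p = 3.5e-07). Tap1 was still higher with IFNg in both genotypes, and Tyr and Mki67 higher with IFNb in both.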

How the results depend on the processing

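Counts of called genes in all 5 contrasts stayed within 1.5 times under every alternative. For IFNg minus IFNb in control cells, 4182 became 3459 to 3730 with 1 library left out and 3767 to 5093 otherwise, and 48.8% to 55% of calls were higher with IFNg. Same-numbered libraries of the 2 groups showed almost no shared deviation (correlations 0.012 to 0.016). Over all tested genes such deviations are largely counting error, so these values cannot decide whether the replicate numbers pair the libraries. With the replicate block 4161 genes were called, 4121 of them in both fits and in the same direction. Of 285 called genes followed, 28 lost their call under at least 1 alternative and none changed sign, while 6 genes that were not called gained a call (Ddx58, Irf3, Ldha, Mx2, Oas2 and Tyrp1). The difference between genotypes for Irf1, -0.001 and not called, was 0.022 with RLE size factors, 0.002 with no filter, 0.009 with the length trend removed, 0.003 with only the compared groups, 0.019 with DESeq2 and -0.066 to 0.054 with 1 library left out. Fitted values of genes with few IFNb counts moved: Casp12 went from 7.49 to 10.09 without control IFNb replicate 1, Ciita reached 7.18 without control IFNb replicate 2, and Cd74 7.05, Apol6 11.54 and Gbp10 13.68 without control IFNb replicate 3, from fitted values of 6.29, 6.2, 10.68 and 11.86. Chemokine genes higher with IFNg were 6 of 8, 3 of 4 with only the compared groups and 6 of 12 with no filter. The genotype difference of Cxcl9, 3.71 and not called (adjusted p = 0.093), became 6.50 (adjusted p = 0.022) without Ptpn2-null IFNb replicate 3. Cd274 was called for a genotype difference with only the compared groups (0.30, adjusted p = 0.027) and without control IFNb replicate 2 (0.38, adjusted p = 0.031). Depth limits genes under about 1 CPM, whose ratios rest on few counts.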

Other observations

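In the 3 control libraries given both interferons, a few genes picked after their values were seen stood apart from both single treatments or from IFNg alone. Ciita measured 4.51, 5.19 and 3.5 CPM with both and 15.4 to 17.2 CPM with IFNg alone, and Cd74 measured 3.49, 2.93 and 5.37 CPM against 13 to 18.6 CPM. H2-Aa measured 0.234 to 1.23 CPM against 2.75 to 3.48 CPM. The groups did not overlap for any of these 3 genes. Groups of 3 libraries often do not overlap, as for 50.3% of tested genes between IFNg and IFNb. That share is not given for this contrast, and no test of it was run. Oas2 at 298 to 390 CPM and Isg15 at 679 to 964 CPM stood above each interferon alone. Cdkn1a measured 772 to 899 CPM with both, above each interferon alone.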
